A study of Bos taurus with 2 samples.

Results

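The cells described here are 103 deeply sampled cell barcodes of a lactating cow's mammary gland that carry lymphatic endothelial transcripts but none of RELN or PKHD1L1. They were taken from 15897 barcodes of the lactating library, and from 29669 barcodes in both libraries of the study. A barcode was a member when it held 5000 or more unique molecular identifiers (UMIs, each counted as 1 captured transcript) and at least 2 of the 4 lymphatic genes PROX1, LYVE1, MMRN1 and FLT4. It also had to hold at most 2 UMIs of the epithelial genes EPCAM and KRT8 together, at most 1 UMI of the T cell receptor complex genes CD3E, CD3D and CD3G together, and 0 UMIs of RELN and PKHD1L1. Deep therefore refers to the number of UMIs and not to a position in the gland. Of the 15897 barcodes, 3280 had enough UMIs, 1011 of these held 2 or more lymphatic genes, 907 also met the epithelial limit and 720 the T cell limit, and 103 of those 720 held no RELN or PKHD1L1 UMI. The levels of these genes are therefore a description of the choice and were not tested.

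Lymphatic endothelium lines the vessels that drain fluid and immune cells from a tissue. Its identity is held by the transcription factor PROX1 with SOX18 and NR2F2, and it responds to VEGF-C through the receptor FLT4. The blind-ended initial vessels are known for LYVE1, a hyaluronan receptor, RELN, a secreted matrix glycoprotein, and CCL21, the chemokine that draws dendritic cells and T cells into the vessel. Collecting vessels downstream carry less LYVE1 and hold valves. In the lactating udder these vessels return fluid from around the alveoli.

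The study compared single cells of mammary gland from Holstein dairy cattle, with 1 library from an adult in lactation and 1 from a newborn. Neither animal carried a stated treatment or genetic change, and the sources used here give no exact age. Tissue was digested with hyaluronidase, collagenases and DNase, strained, and run on the 10x Genomics 3' V3 chemistry. With 1 library per stage there is no replicate and no test over samples, so no p-value is given, and animal, stage, handling and library cannot be told apart. All intervals below cover counting error only. The series' text states 24472 high-quality cells, against 29669 deposited barcodes, and the filter behind that number is not stated there. The libraries shared 57 barcode sequences, none of them a member's.

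Levels are given as CPM: the UMIs of a gene summed over a group of cells, per 1000000 UMIs of the same cells. The members held from 5059 to 147476 UMIs, with a median of 7274 and a median of 2158 detected genes, and 1 barcode held 13.6% of their 1081966 UMIs. Adult comparators were the 491 lymphatic cells that met the same rule with 2 or more UMIs of RELN and PKHD1L1 (median 9806 UMIs) and 36 blood endothelial cells (median 10270 UMIs). The 126 cells with exactly 1 UMI of these genes were kept apart. As a reference for stray RNA, 810 T cells of the same library (median 6534.5 UMIs) were read for the same genes. They are those of 959 T cells that held at most 1 of the 4 lymphatic genes of the rule, so their levels of lymphatic genes are low in part by that choice.

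The 103 barcodes were not all lymphatic. In 84 of them (81.6%) none of the lists weighed for another cell type outweighed the endothelial lists, and in 19 (18.4%, holding 33.9% of the members' UMIs) one did. Most of these 19 fell into 4 groups: milk protein genes in 4 barcodes, macrophage or dendritic genes in 7, blood endothelial genes in 5 and fibroblast genes in 2. The last 1 carried B cell genes. Among the 491 RELN-positive cells 15 (3.05%) stood out in this way, and among the 126 cells with 1 UMI 3 did (2.38%). The limits for leaving barcodes out were set after these data had been seen, and they use the lymphatic and endothelial lists, so that the levels of listed genes in the 84 cells follow in part from that choice. The neutrophil list, which includes CXCL8, was not weighed. In some of the 84 it outweighed the lymphatic and pan-endothelial lists together. A barcode of 6470 UMIs held 10356 CPM of it, against 464 and 1546 CPM of those lists. Another, of 7148 UMIs, held 5316 CPM, against 839 and 1539.

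The 19 barcodes differed in the genes they held. The 4 with milk protein genes held CSN2, beta-casein, at 204912 CPM, with 3 UMIs of LYVE1, 4 of MMRN1, and 0 of the endothelial genes CLDN5, CDH5 and PECAM1. The lymphatic genes of the rule thus came to a few UMIs in these barcodes of 11678 to 147476 UMIs. The full lymphatic list stood at 612 to 1028 CPM in them, with 827 CPM in the barcode of 147476 UMIs. The 7 with macrophage genes held 187 UMIs of the complement gene C1QA, in 4 of the 7, and 20 of LYVE1, 14 of them in 1 barcode, and CLDN5 was present in 1 of them. CST3, the cystatin C gene of the same list, was present in all 7. The 2 with fibroblast genes held 225 UMIs of the proteoglycan gene DCN and none of CLDN5. The 5 with blood endothelial genes held 71 UMIs of VWF, 82 of CLDN5 and 28 of MMRN1. The same rule on lymphatic genes found 2 or more of the 4 in 149 of 959 T cells (15.5%, exact binomial interval 13.3 to 18.0%). This share was read in T cells and in no other cell type.

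**Figure D1:**
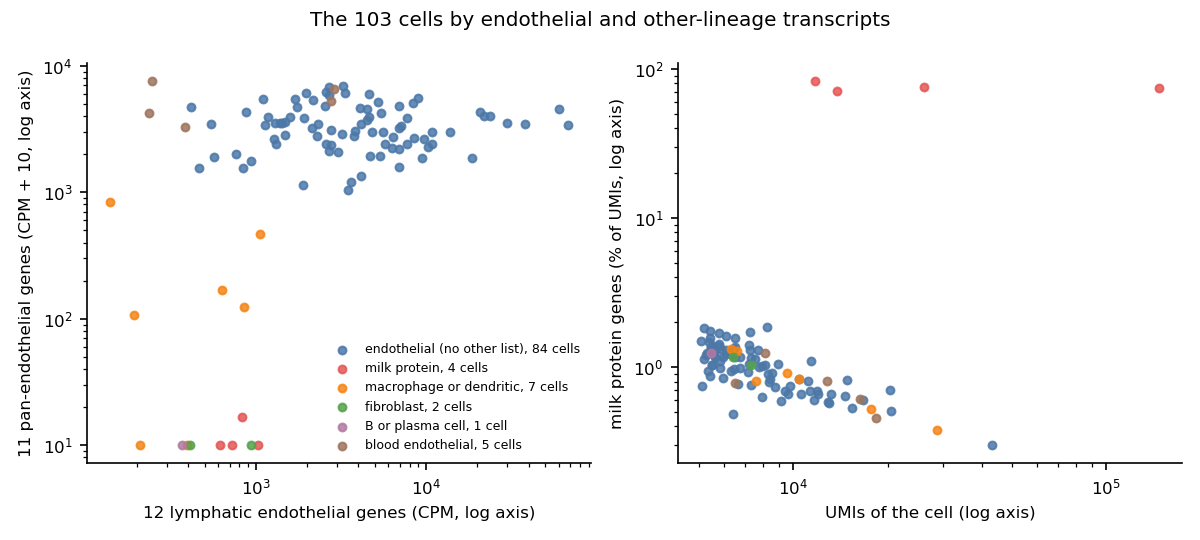
Each point is 1 of the 103 barcodes, coloured by the marker list that outweighed the endothelial lists. The left panel sets the summed CPM of 12 lymphatic genes against that of 11 pan-endothelial genes (CPM + 10), and the right panel sets the UMIs of the barcode against the percentage of UMIs from milk protein genes, all on log axes. The 84 barcodes with no other list lie at 1038 CPM or more of the pan-endothelial genes and at 1.85% or less of milk protein genes.

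The marker lists of the 84 cells are a description, since the same lists, and with the lymphatic genes of the rule among them, chose these cells. The 12 listed lymphatic genes summed to 6086 CPM over the cells, from 418 to 68222 in single cells with a median of 3696, against 61.0 CPM in blood endothelial cells. RELN and PKHD1L1 were at 0 by the rule, and the other 10 listed genes were detected. The 11 pan-endothelial genes, such as CDH5 and PECAM1, summed to 3323 CPM and were present in every one of the 84. The 15 blood endothelial genes summed to 355 CPM, against 11227 in the blood endothelial cells, and 8 of them were at 0, among them the venular gene ACKR1 and the arterial genes SOX17 and GJA5. The macrophage list summed to 602 CPM, with C1QA, C1QB, C1QC and CSF1R at 0, and the fibroblast list to 49.0 CPM with COL1A1 at 0. Barcodes rich in these lists had been left out: the 5 with blood endothelial genes held 30 UMIs of ACKR1 and 3 of SOX17, the 7 with macrophage genes the 187 of C1QA, and the 2 with fibroblast genes 43 of COL1A1. Milk protein genes made up 0.300 to 1.85% of the UMIs of a cell. Scrublet, a doublet caller, placed 18 of the 103 (17.5%) and 15 of the 84 (17.9%) among its highest scores, against 46 of the 491 RELN-positive cells (9.37%). The share was 16.7% (21 of 126) in the cells with 1 UMI of RELN and PKHD1L1, and 27.5% in the 810 T cells. Over the whole library it was set to 12.7%. The part of doublets in the results was not tested beyond the values without the barcodes of highest score.

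The rule's genes and thresholds gave the following values, with no test. By combination, 38 of the 103 held LYVE1, MMRN1 and FLT4, 22 held LYVE1 and MMRN1, 11 held PROX1, LYVE1 and MMRN1, and 10 held all 4. Just outside the limit on RELN and PKHD1L1, the 126 cells with 1 UMI had 1174 CPM of LYVE1 and 1673 of MMRN1, against 626 and 915 over all 103 members. Just outside the UMI minimum, 29 barcodes of 4000 to under 5000 UMIs had 1807 CPM of LYVE1, against 1139 in the 28 members of 5000 to under 6000. Barcodes with 1 lymphatic gene, just short of the required 2, held 19.8 CPM of LYVE1, against 317 in the 41 members with exactly 2. The 51 barcodes over the epithelial limit had 33.3 CPM of LYVE1 and 145443 CPM of CSN2. The 9 members with 1 CD3 UMI had 557 CPM of LYVE1, against 713 in the 8 barcodes with 2.

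Having no RELN or PKHD1L1 UMI was more frequent at low depth. The members were 103 of 720 lymphatic cells (14.3%, exact binomial interval 11.8 to 17.1%), and 84 of 683 (12.3%) without barcodes of other lineages. In the latter the share was 17.4% from 5000 to under 6000 UMIs, 17.8% up to 8000, 13.4% up to 12000, 5.69% up to 20000 and 2.88% at 20000 or more. RELN and PKHD1L1 together stood at 395 CPM in the RELN-positive cells, which comes to 2.88 UMIs at the members' median depth. When each of the 491 RELN-positive cells was thinned at random to 5000 UMIs, 62 of them (12.6%, 9.82 to 15.9%) were left with none. Of all 617 lymphatic cells with 1 or more UMIs of these genes, 100 (16.2%, 13.4 to 19.4%) were left with none. The 0 UMIs of the members were required by the rule and set no limit on their level, and a cell of this depth cannot be called free of either transcript.

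**Figure D2:**
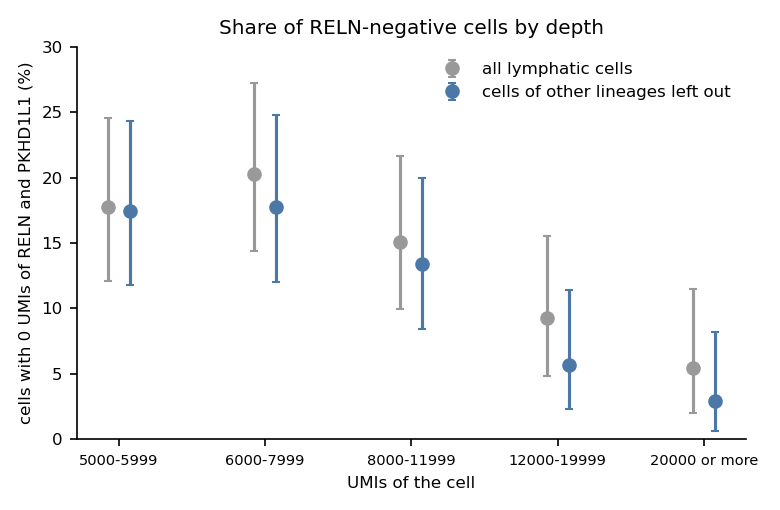
Percentage of adult lymphatic cells without a RELN or PKHD1L1 UMI (y axis) in 5 bands of UMIs per cell (x axis), with exact 95% binomial intervals, for all lymphatic cells (grey) and without barcodes of other lineages (blue). In blue the points lie at 17.4, 17.8, 13.4, 5.69 and 2.88%.

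The 5 marker genes read for these cells were each found in most of the 84. CLDN5, the main claudin of endothelial tight junctions, was at 1035 CPM in 94.0% of the 84 cells, and at 764 CPM in 82.5% of the 103. Single members held from 0 to 51 UMIs of it. AKAP12, a scaffold protein for protein kinase A, was at 775 CPM in 89.3% of the 84 cells and at 516 CPM over the 103. LYVE1 was at 898 CPM in 84.5% of the 84 cells and at 626 CPM over the 103, with 0 to 30 UMIs a cell. KANK3, an adaptor of the cell's actin skeleton, was at 157 CPM in 70.2% of the 84 cells, and at 112 CPM over the 103. The growth factor gene BMP2 was at 374 CPM in 61.9% of the 84 cells and at 253 CPM over the 103. The 810 T cells held 1.64 CPM of KANK3 in 1.36% of cells and 21.2 CPM of CLDN5 in 6.05%, the lowest and the highest CPM of these 5 genes there, at a median depth of 6534.5 UMIs against 6959 in the 84. In all 959 T cells, those with 2 or more lymphatic genes included, CLDN5 was at 143 CPM in 19.6% of cells, AKAP12 at 192, LYVE1 at 258, BMP2 at 142 and KANK3 at 32.2 CPM. LYVE1 is a gene of the rule, so its contrast with T cells is set by the choice. CLDN5 is in the pan-endothelial list that weighed in leaving barcodes out, so its level in the 84 follows in part from that. Between the 84 and the 476 RELN-positive cells none of the 5 differed 2-fold; in the latter LYVE1 stood at 1620 CPM, CLDN5 at 941, AKAP12 at 1091, BMP2 at 554 and KANK3 at 227. Over all 103 against all 491, LYVE1 (626 against 1587 CPM), AKAP12 (516 against 1072) and BMP2 (253 against 546) were lower by 2-fold or more. The median log2 ratio over all genes was −0.23 in that comparison, and BMP2 did not pass with the median gene set equal.

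CCL21 was the most unevenly spread of the lymphatic genes. It summed to 3314 CPM over the 84 cells and 2222 CPM over the 103, with a UMI in 69.0% of the 84. After thinning each cell to 5000 UMIs the median was 1 UMI and the highest 309, with a mean of 19.4. The RELN-positive cells had a median of 3, a highest value of 263 and a mean of 11.5. A few cells therefore carried most of the CCL21 of the RELN-negative group, and a smaller share of its cells held a UMI after thinning (59.5% against 76.5%). The glycoprotein gene PDPN was at 234 CPM in the 84 cells and 165 in the RELN-positive cells, with a UMI in 59.5% and 70.4% of cells.

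The members were next set against the 491 RELN-positive lymphatic cells of the same gland. A gene was counted as higher or lower when its CPM differed 2-fold or more and reached 50 CPM, 20 UMIs and 10% of cells in the higher group. Since RELN and PKHD1L1 chose both groups, the comparison is a description. Over all 103 members, 70 of 2762 genes were higher (2.53%) and 166 lower (6.01%). The higher genes were led by genes of milk-secreting epithelium and of myeloid cells: HSTN at 955 against 33.0 CPM, ELF5, the transcription factor of alveolar epithelium, at 151 against 10.1 CPM, and the MHC class II gene BLA-DQB at 425 against 50.1 CPM. Without barcodes of other lineages the log2 ratio of members over RELN-positive cells was below 0 for BLA-DQB (−0.59), CTSC (−1.33) and CKB (−0.11).

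With barcodes of other lineages left out of both groups (84 against 476 cells), 76 of 2883 genes were higher in the RELN-negative cells (2.64%) and 59 lower (2.05%). Of the 76 genes 16 were also among the 70, and of the 59 lower genes 52 were also among the 166. The median log2 ratio over all genes was −0.01, against −0.23 with all 103. The RELN-negative and RELN-positive groups thus differed 2-fold or more in 135 of 2883 genes. With every cell thinned to 5000 UMIs 49 genes were higher and 83 lower, of which 36 and 33 were shared with the counts above. Among abundant transcripts, VIM, an intermediate filament, was at 10278 against 9688 CPM, the caveolar gene CAV1 at 1900 against 1884 CPM, and RAMP2, a receptor partner for adrenomedullin, at 1666 against 1758 CPM. These values rest on the 84 cells in what follows, unless all 103 are named.

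The genes that were lower were GPM6A, SELENOP, ZNF521 and others of low to middle level. SELENOP, a secreted selenium carrier, was at 336 CPM in 72.6% of cells, against 934 CPM in 96.6%, which is 2.78-fold lower (interval 2.45 to 3.18). The membrane glycoprotein gene GPM6A was at 90.9 against 262 CPM, 2.88-fold lower (2.25 to 3.75), and was found in 46.4% against 84.5% of cells. The zinc finger gene ZNF521 was at 43.4 against 133 CPM, 3.07-fold lower (2.15 to 4.55). The sodium channel gene SCN3A was at 11.2 against 57.0 CPM, 5.09-fold lower (2.56 to 11.9), and was found in 4.76% against 35.9% of cells. Aldehyde oxidase AOX1 was at 12.6 against 73.9 CPM, CALCOCO1 at 6.99 against 52.8 CPM and the apolipoprotein gene APOA1 at 36.4 against 151 CPM. When every cell was thinned to 5000 UMIs, SELENOP was 2.53-fold, GPM6A 2.65-fold, ZNF521 2.82-fold and SCN3A 5.86-fold lower. T cells held 4.48 CPM of GPM6A, 2.69 of ZNF521 and 0.598 of SCN3A, all below the RELN-negative cells.

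IL6, the inflammatory cytokine, was at 56.0 CPM in the 84 cells against 323 CPM, 5.78-fold lower (4.23 to 8.11). After thinning it was 3.00-fold lower. It was found in 14.3% against 21.8% of cells, with 25 of its 40 UMIs in 1 cell, and T cells held 407 CPM, so that stray RNA cannot be told apart from expression at this level. The vasoconstrictor gene EDN1 was 3.95-fold lower (2.12 to 8.31), at 10 UMIs in the group, in 9.52% against 13.9% of cells. SPARCL1 and LRP12 were 3.34-fold and 3.21-fold lower, each at 22.4 CPM. FAM210B was 3.20-fold lower, and at the limit of 2-fold after thinning (interval 1.28 to 3.29).

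Several of the genes that were higher drew on single cells. FABP3, a fatty acid binding protein, was at 348 against 31.2 CPM, 11.2-fold higher (9.26 to 13.5), but 103 of its 249 UMIs came from 1 cell, and after thinning it was 4.46-fold higher. It was found in 28.6% of the 84 cells and in 32.5% of T cells, at 116 CPM there, so that its share of cells is not read as expression. CKAP2, CKS2 and STMN1, all tied to the mitotic cycle, were 7.67-fold, 6.21-fold and 4.14-fold higher, with 26 of 36, 29 of 59 and 34 of 80 UMIs in 1 cell each. After thinning these 3 genes, and the proteoglycan gene SDC2 (4.58-fold higher), fell below the minima. The metallothionein gene MT1A was 3.08-fold higher with 56 of 69 UMIs in 1 cell.

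Other genes that were higher rested less on single cells. ACAT2, a thiolase that feeds sterol synthesis, was at 136 against 38.9 CPM, 3.49-fold higher (2.73 to 4.42), with a UMI in 42 of 84 cells against 27.1%. BOLA3, needed to build iron-sulphur clusters, was at 141 against 44.7 CPM, 3.16-fold higher (2.49 to 3.97). The nucleotidase gene NT5C was at 259 against 61.4 CPM, 4.22-fold higher, with 50 of 185 UMIs in the deepest cell and 2.62-fold higher after thinning. RANBP1, a partner of the Ran GTPase, was at 353 against 131 CPM, 2.68-fold higher (2.32 to 3.09). CCN2, a matrix protein induced by TGF-beta and stretch, was at 358 against 127 CPM, 2.81-fold higher (2.43 to 3.24). DCTPP1 was 3.26-fold higher (2.09-fold after thinning). In the 84 cells RANBP1 was found in 66.7% and CCN2 in 44.0%. In the 257 cells with 2 to 4 UMIs of RELN and PKHD1L1 these shares were 66.5% and 42.0%. They were 68.5% and 56.2% in the 219 with 5 or more. In the same order of cells BOLA3 was found in 45.2, 31.5 and 41.6%, NT5C in 47.6, 44.4 and 35.6%, and DCTPP1 in 32.1, 22.6 and 21.5%. The deepest of the 84 cells held 43062 UMIs, 6.02% of the group. Without it 60 genes were higher and 46 lower, and ACAT2, BOLA3, NT5C, RANBP1, CCN2 and DCTPP1 were 3.25, 2.63, 3.27, 2.42, 2.48 and 2.88-fold higher.

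**Figure D3:**
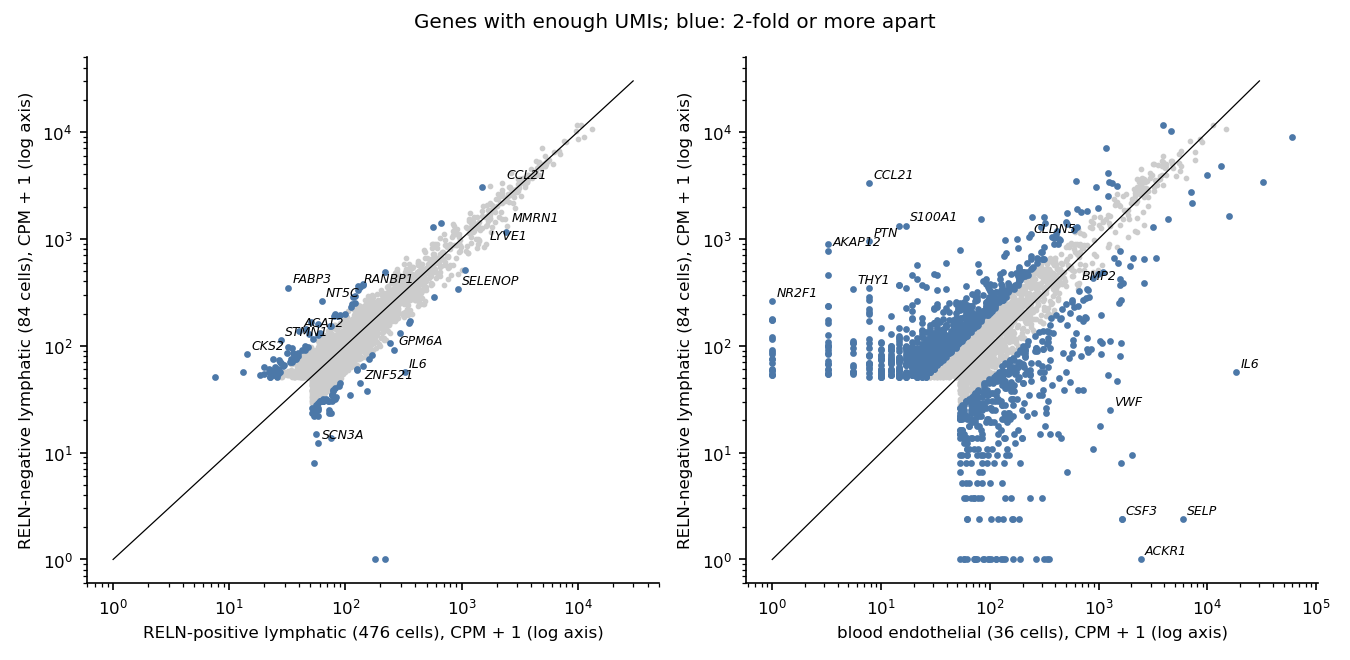
Each point is a gene with enough UMIs; the y axis is its CPM + 1 in the 84 RELN-negative cells and the x axis its CPM + 1 in 476 RELN-positive lymphatic cells (left) or 36 blood endothelial cells (right), on log axes, with the line of equal levels. Blue marks a difference of 2-fold or more, for 135 of 2883 genes on the left and 1388 of 2984 on the right. The 2 points at 0 CPM on the left are RELN and PKHD1L1, which the rule set.

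Several genes of lymphatic identity were lower by 2-fold or more over all 103 members, and none of these passed in the 84. Over the 103, MMRN1 was at 915 against 2422 CPM, LYVE1 at 626 against 1587, KDR at 53.6 against 134 and PROX1 at 37.9 against 83.3 CPM, while FLT4 (121 against 201 CPM) did not pass. In the 84 cells, chosen in part by these genes, LYVE1 was at 898 against 1620 CPM, a ratio of 1.80 (1.67 to 1.96), and MMRN1, a secreted matrix and platelet protein, at 1319 against 2467 CPM, a ratio of 1.87. PROX1 was at 49.0 against 84.3 CPM. The interval of the ratio for FLT4 (172 against 204 CPM, 0.986 to 1.44) included equal levels. After thinning, cells held a mean of 5.19 LYVE1 UMIs (median 3) against 8.87 (median 8), and 7.77 MMRN1 UMIs (median 7) against 14.7 (median 12). Thinned CLDN5 was alike in both, at a mean of 5.19 against 5.11 UMIs. PROX1, LYVE1, MMRN1 and FLT4 chose the cells of both groups and weighed in leaving barcodes out, so these values are a description.

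**Figure D4:**
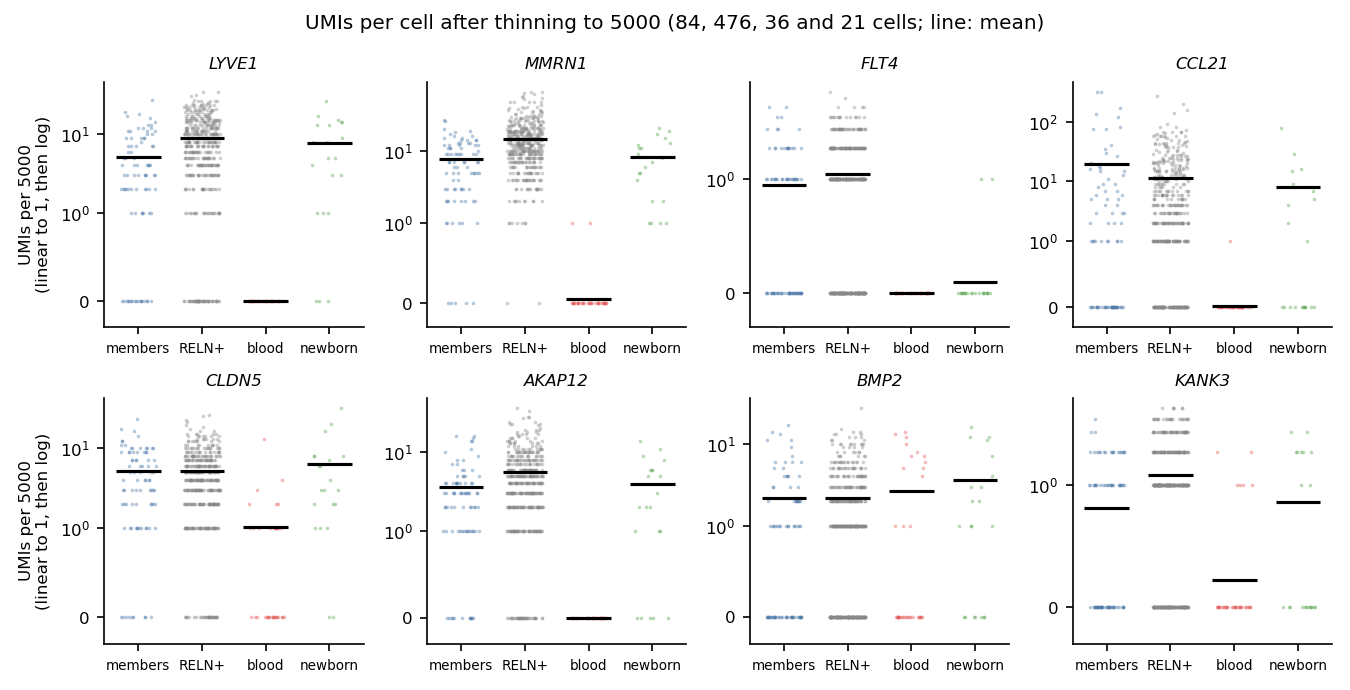
UMIs per cell after thinning to 5000 UMIs (y axis, linear to 1 and logarithmic above) for 8 genes in the 84 RELN-negative, 476 RELN-positive, 36 blood endothelial and 21 newborn RELN-negative cells. Points are cells and lines are means. For LYVE1 and MMRN1 the RELN-negative mean (5.19 and 7.77 UMIs) lies under the RELN-positive one (8.87 and 14.7), while for CLDN5 both are near 5 UMIs.

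Across 4 levels of RELN and PKHD1L1 (0, 1, 2 to 4, and 5 or more UMIs, in 84, 123, 257 and 219 cells) the values are a description. The levels are those of the rule's own genes, LYVE1 is also a gene of the rule, and SELENOP, GPM6A, ACAT2 and CKS2 were named for their difference between the first level and the last 2. LYVE1 was at 898, 1222, 1389 and 1791 CPM over these levels, and SELENOP at 336, 610, 734 and 1082 CPM. GPM6A was at 90.9, 173, 207 and 303 CPM, and the polarity gene PARD6G at 161, 265, 327 and 373 CPM. The reverse order held for ACAT2, at 136, 61.6, 46.4 and 33.4 CPM, and for CKS2, at 82.5, 29.9, 18.7 and 9.3 CPM. CCL21 (3314, 2898, 1899 and 2478 CPM) and CLDN5 (1035, 1083, 1058 and 855 CPM) followed no order. Depth moved with these levels, at a median of 6959, 6985, 8698 and 14503 UMIs per cell, and its part in them was not tested.

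**Figure D5:**
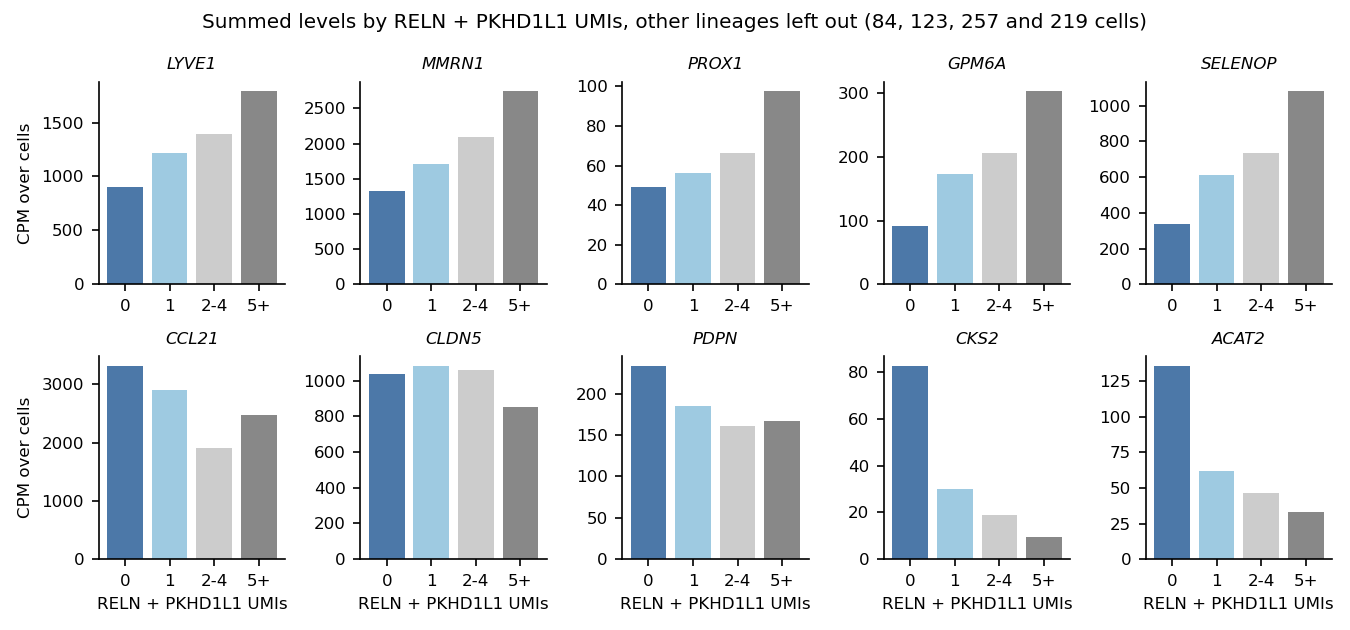
Summed CPM (y axes) of 10 genes in lymphatic cells of the lactating gland by their UMIs of RELN and PKHD1L1 (x axes; 84, 123, 257 and 219 cells), without barcodes of other lineages. LYVE1, MMRN1, PROX1, GPM6A and SELENOP are lowest in the cells with 0 UMIs, CKS2 and ACAT2 are highest there, and CCL21 and CLDN5 have no steady order.

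By groups of genes, few listed members of the 84 cells passed 2-fold against the RELN-positive cells, where 2.64% of all genes were higher and 2.05% lower. List medians are over the listed genes with at least 20 UMIs in both groups together, and are set beside the median of all genes with as many. Of 8 tested lymphatic transcription factors and growth factor receptors none passed in either direction, with a median log2 ratio of −0.48 beside −0.01 over all genes. NR2F2 was at 316 against 402 CPM, SOX18 at 235 against 250 CPM, and KDR, the main VEGF receptor of blood vessels, at 75.6 against 136 CPM. Of 6 initial lymphatic genes the 2 that were lower were RELN and PKHD1L1, which the rule set. None of 4 tested collecting vessel and valve genes passed: the gap junction gene GJA1 was at 171 against 268 CPM and GATA2, a valve transcription factor, at 83.9 against 85.2 CPM. None of 8 junction genes passed, with CDH5 at 175 against 237 CPM. Over all 103 members, where 6.01% of all genes were lower, KDR, PROX1, LYVE1, MMRN1 and GJA1 passed as lower in these lists besides RELN and PKHD1L1. With the median gene set equal, 1 of 8 transcription factor and receptor genes was lower there. The same scaling left 4 of 6 initial lymphatic genes, RELN and PKHD1L1 included, and 0 of 4 collecting vessel genes lower.

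In BMP and TGF-beta signalling 1 of 12 genes was lower, the co-receptor TGFBR3 at 36.4 against 77.1 CPM. BMP2 itself was at 374 against 554 CPM, a ratio of 1.48. Over all 103, 4 of 12 were lower: BMP2, TGFBR2, LTBP4 and TGFBR3. With the median gene set equal, 0 of these 12 were lower over all 103. Among 11 growth factor and receptor genes IGFBP5, a binding protein of insulin-like growth factors, was 2.47-fold higher (283 against 114 CPM, in 28.6% against 16.6% of cells; 3.38-fold after thinning), and SEMA6A was 2.08-fold lower. ANGPT2, a ligand of the receptor TIE2, was at 85.3 against 161 CPM, and IGFBP7 at 466 against 930 CPM. Of 15 matrix genes 1 was lower (SPARCL1), of 17 immediate early genes 1 (BTG2), and of 11 NF-kB genes 1 (IL6). None of 13 heat shock, 30 ribosomal protein or 12 mitochondrially encoded genes passed. The median log2 ratio of 14 hypoxia and glycolysis genes was 0.53 with none past 2-fold, as GAPDH was at 1105 against 706 CPM and ALDOA at 575 against 350 CPM.

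In the cell cycle list 2 of 4 tested genes were higher and none lower in the 84 cells, beside 2.64% higher over all genes. Over all 103 members only PCNA passed (103 against 50.3 CPM), and CCND1 was at 256 against 138 CPM. CCND1, a cyclin of the step into DNA synthesis, was at 371 against 141 CPM, 2.63-fold higher (2.29 to 3.02), and PCNA, the clamp of DNA polymerase, at 113 against 51.2 CPM, 2.22-fold higher (1.72 to 2.83). After thinning CCND1 was 2.12-fold higher and PCNA 1.81-fold higher, short of the limit. Of the 8 genes of the list for dividing cells at least 1 UMI was found in 40 of 84 thinned cells (47.6%, exact binomial interval 36.6 to 58.8%), against 136 of 476 (28.6%, 24.6 to 32.9%). In thinned blood endothelial cells 9 of 36 held 1 or more. At least 3 UMIs were found in 7 of 84 (8.33%) against 7 of 476 (1.47%). TOP2A and UBE2C, genes of mitosis, had 29 of 32 and 22 of 24 UMIs in 1 cell each, and MKI67 was found in 1 cell of the 84.

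The members were also clustered on their own, and the clusters are described with no test. The 103 barcodes formed 3 clusters of 52, 36 and 15, the last led by TTR, BRB and the complement gene C1QA, and with 6 of its 15 barcodes among the 84. The 84 cells, clustered alone, formed 2 clusters. The larger, of 56 cells, was led by chemokine and early response genes: CXCL3 was at 12966 CPM against 741 in the rest, and CD83 at 325 against 4.36 CPM. Over all RELN-positive cells CD83 was at 264 CPM, against 222 CPM in the 84. The smaller cluster, of 28 cells, was led by SORBS2, the DNA replication gene MCM4 and SDC2. MCM4 was found in 28.6% of its cells, against 10.7% of the rest. Its summed level of dividing cell genes was 536 CPM, against 146 in the larger cluster. Much of that sum came from 1 cell of 14790 UMIs, which held 5139 CPM of these genes. Over the 84 cells the median was 90.1 CPM. CCL21 was alike in both clusters, at 3332 and 3306 CPM. CLDN5 was at 1343 CPM in the smaller and 890 in the larger cluster, and BMP2 at 131 and 488 CPM.

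Against the 36 blood endothelial cells of the same gland the members differed in many more genes. Over all 103, 563 of 2722 genes were higher (20.7%) and 482 lower (17.7%), and over the 84 cells 937 of 2984 were higher (31.4%) and 451 lower (15.1%). With thinned cells 260 were lower in the latter comparison. The split depended on scaling: with the median gene set equal, 510 were higher and 680 lower over the 84 cells, and 408 and 671 over the 103, since the median log2 ratio over all genes was 0.50 for the 84 cells. Blood endothelial cells were chosen by low PROX1, LYVE1 and MMRN1 and by ACKR1, SELE, PLVAP and FLT1, so those genes are no finding. SELP, VWF and SOX17 belong to the blood endothelial list by which barcodes were left out of the 84, so their levels there follow in part from that choice. Both groups came from 1 library, and the blood endothelial cells were few.

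Several lymphatic genes that the rules of both groups did not use stood far above the blood endothelial level. CCL21 and PDPN are in the lymphatic list and CLDN5 is in the pan-endothelial list. Both lists weighed in leaving barcodes out of the 84, so the levels of these genes there follow in part from that choice. In the 84 CCL21 was at 3314 CPM against 3 UMIs (6.78 CPM), a ratio of 489 (167 to 2371). Over all 103 it was at 2222 CPM, a ratio of 328 (112 to 1590). AKAP12 was at 775 CPM in the 84 against 1 UMI (2.26 CPM), a ratio of 343 (61.3 to 13565). PDPN was at 234 CPM against 1 UMI, a ratio of 103 (18.3 to 4106). PTN, a heparin-binding growth factor, was at 946 CPM against 3 UMIs, a ratio of 139 (47.5 to 678), and the calcium-binding gene S100A1 at 1326 against 15.8 CPM, 83.8-fold higher (40.5 to 209). NR2F1, an orphan nuclear receptor, was at 260 CPM against 0 UMIs, at least 38.4-fold higher with 3 UMIs over the group as the limit for 0. GPX3 and MT3 were likewise at least 25.6-fold and 26.2-fold higher. The surface glycoprotein gene THY1 was at 341 CPM against 2 UMIs, a ratio of 75.5 (20.7 to 627). CLDN5 was 4.53-fold higher (1035 against 228 CPM) and KANK3 4.08-fold higher, whereas BMP2 was at 374 against 638 CPM and did not differ 2-fold. After thinning, with 1 or 2 UMIs left in the blood endothelial cells, the ratio was 91.7 for PTN (25.2 to 760), 37.7 for PDPN (6.60 to 1506) and 34.5 for THY1 (9.40 to 287).

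Named genes lower in the RELN-negative cells included several known from activated venous endothelium. VCAM1, a ligand for lymphocyte integrins, was at 14 UMIs over the 103 members (12.9 CPM) against 1641 CPM, 127-fold lower (75.1 to 233), and at 1 UMI in the 84, a ratio of 1173 (210 to 46402). SELP, the selectin that catches rolling leukocytes, was at 66 UMIs over the 103 (61.0 CPM) against 5971 CPM, 97.9-fold lower (76.7 to 127), and at 1 UMI in the 84 cells. IL6 was at 56.0 against 18475 CPM, 330-fold lower (242 to 462; 209-fold after thinning), and the protease gene ADAMTS4 at 8.39 against 2035 CPM, 242-fold lower. Over the 103 these were 163-fold and 78.6-fold lower. JAM2, a junctional adhesion molecule, was at 13 UMIs over the 103 and at 0 UMIs in the 84, against 350 CPM, at least 83.5-fold lower in the 84 cells. SOX17 was at 3 UMIs over the 103, a ratio of 120 (40.2 to 588), and at 0 in the 84. The water channel gene AQP1 was at 111 against 1273 CPM, 11.5-fold lower, and VWF, the clotting factor carrier, at 90.6 CPM over the 103 and 23.8 CPM in the 84, against 1273 CPM.

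Most listed NF-kB, interferon and adhesion genes were lower as well, beside 15.1% lower and 31.4% higher over all genes in the 84 cells. The blood endothelial cells were chosen by ACKR1, SELE, PLVAP and FLT1. Levels of genes that go with these, here and among the named genes above, may follow in part from that choice, which was not tested. The counts are therefore a description. Of 13 tested NF-kB and inflammation genes 12 were lower and none higher in the RELN-negative cells, with a median log2 ratio of −2.57 beside 0.50 over all genes; BIRC3 was at 105 against 1598 CPM and SOD2 at 86.7 against 803 CPM. All 9 tested interferon-induced genes were lower, with ISG15 at 111 against 1038 CPM and a median of −1.83. Of 8 leukocyte adhesion genes 6 were lower, with ICAM1 at 79.7 against 1558 CPM. In MHC class II presentation 4 of 5 genes were lower, with the invariant chain gene CD74 at 193 against 1054 CPM, whereas over all 103 members none of the 5 passed, and in MHC class I 4 of 11 were lower and 1 higher, with B2M at 4801 against 13252 CPM. Of 13 heat shock genes 7 were higher and 1 lower, with HSPA1A at 1600 against 314 CPM and a list median of 1.28. With the median gene set equal, 6 of 14 heat shock genes were higher and 2 lower, MHC class I had 0 higher and 7 lower of 11, and the counts of the NF-kB, interferon, adhesion and MHC class II lists did not change. Of 7 lymphatic transcription factors and receptors NR2F2, SOX18, FLT4 (used by the members' rule) and GATA2 were higher and TEK lower (3 higher with the median gene set equal), and of 11 junction genes CLDN5 was higher and 5, among them PECAM1 (269 against 572 CPM), lower.

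In the newborn gland the same rule found 21 cells among 58 lymphatic cells of 5000 or more UMIs (36.2%). Of these 21, 5 carried more fibroblast and 2 more blood endothelial than lymphatic transcripts, which left 14. Against all 21, 286 of 2357 genes were higher in the 103 members (12.1%) and 288 lower (12.2%). Because 14 cells are few, the 84 cells were set against 43 newborn lymphatic cells of any RELN level with other lineages left out, and 351 of 3050 genes were higher (11.5%) and 342 lower (11.2%). RELN and PKHD1L1 differ there by the choice of cells.

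Among the named genes higher in the lactating cells were MSMO1, HMGCS1, FDPS and CYP51A1, each of which encodes an enzyme on the path to cholesterol; no list of that path was read. MSMO1 was at 785 against 77.3 CPM, 10.2-fold higher (7.31 to 14.5), HMGCS1 at 466 against 20.3 CPM, 22.9-fold higher (12.3 to 48.2), and FDPS at 221 against 14.2 CPM, 15.5-fold higher (7.36 to 39.2). CYP51A1 was at 224 CPM against 3 UMIs, a ratio of 36.7 (12.3 to 180). After thinning, with 1 and 2 UMIs left in the newborn cells, the ratio was 99.8 for HMGCS1 (17.7 to 3963) and 23.3 for CYP51A1 (6.27 to 195). The newborn T cells, chosen as the adult ones were, numbered 44, and 16 of them (36.4%) were among the highest Scrublet scores. Adult T cells held 137, 166, 62.2 and 160 CPM of MSMO1, HMGCS1, FDPS and CYP51A1, and newborn T cells 69.0, 49.0, 33.4 and 46.8 CPM. For MSMO1 and FDPS the 84 cells were thus well above the T cells of their own library, and for CYP51A1 the share of cells with a UMI was the same in both (59.5% and 59.4%).

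Several other named genes stood high in the T cells of the library in which they were higher. SRGN was at 322 CPM against 1 UMI, but stood at 3593 CPM in adult T cells, and SPP1 at 102 CPM against 0 UMIs but at 282 CPM in adult T cells. Among genes lower in the lactating cells, DCN was at 15.4 against 604 CPM and MGP at 29.4 against 795 CPM, and newborn T cells held 3814 and 3999 CPM of them. COL1A1 was at 0 UMIs against 201 CPM, with 2331 CPM in newborn T cells. The fibroblast list summed to 10627 CPM in the 44 newborn T cells, with up to 62429 CPM in 1 of them. Stray RNA and doublets with fibroblasts cannot be told apart in them. The part of stray RNA in each of these differences was not tested.

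FLT4 (172 against 59.0 CPM), LYVE1 (898 against 2016 CPM) and PROX1 (49.0 against 99.7 CPM) are genes of the rule in both libraries, and their levels are a description. The 43 newborn cells hold RELN-positive cells beside 14 RELN-negative ones, and LYVE1 and PROX1 were also above the 84 in RELN-positive cells of the adult gland (1620 and 84.3 CPM). Of lymphatic genes that the rule did not use, CCL21 was higher in the lactating cells (3314 against 1452 CPM, 2.28-fold) and PDPN lower (234 against 555 CPM, 2.38-fold). A few of the 84 cells carried most of their CCL21, with a UMI in 69.0% of them, so its ratio rests largely on those few. CCL21 and PDPN are in the lymphatic list that weighed in leaving barcodes out of both groups. PDPN was at 258 CPM in newborn T cells. CLDN5 (1035 against 1839 CPM), AKAP12 (775 against 1168), BMP2 (374 against 655) and KANK3 (157 against 181) did not differ 2-fold.

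By group, 13 of 15 tested NF-kB genes were lower in the lactating cells and none higher (median log2 ratio −1.53 beside 0.07 over all genes, of which 11.2% were lower and 11.5% higher), with CXCL2 at 2140 against 5588 CPM and CCL2 at 9.79 against 271 CPM. Of 7 interferon-induced genes 6 were lower, with IFI27 at 61.6 against 661 CPM. Of 15 heat shock genes 6 were lower, with HSPA1A at 1600 against 11299 CPM. In MHC class I presentation 4 of 9 genes were higher, with the class I heavy chain gene JSP at 589 against 138 CPM, and in MHC class II 2 of 3, with CD74 at 193 against 16.3 CPM. Stage, animal and library cannot be told apart in these lists. T cells of the 2 libraries also differed in such genes. IL6, for example, was at 1639 CPM in newborn and 407 CPM in adult T cells, and BLA-DQB at 2.23 and 536 CPM. The part of stray RNA in these list counts was not tested.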

How the data were processed

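Raw UMI counts per gene and barcode were used as the authors deposited them. The submitters' processing notes name Cell Ranger 3.1.0. Build, annotation and cell-calling settings: not given in the sources used here. The files hold 27270 genes, 19730 with a symbol, and were used without normalization by the authors.

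Members and lists were chosen with earlier results of these data known. UMIs were summed over the cells of each group and expressed as CPM, and ratios of 2 groups were given exact conditional binomial intervals of 95%. Genes counted as higher or lower had a ratio of 2 or more, with 50 CPM, 20 UMIs and 10% of cells in the higher group. A level of 0 was bounded by 3 UMIs over the group. Named genes were the 12 with the largest ratio in each direction, ranked by the interval's bound nearest to 1 and leaving out mitochondrially encoded, ribosomal protein, milk protein and rule genes. Added were the marker genes, the most abundant genes, listed genes of highest level and the leading genes of clusters. TOP2A, UBE2C, PARD6G, MCM4, CD83, TGFBR3 and the newborn and adult T cell values were chosen after their values were seen. The code was tested on simulated data.

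Other cell types were judged from 16 marker lists and 26 gene lists were read. A barcode was left out as another lineage when milk protein genes reached 10% of its UMIs, or when the blood endothelial list outweighed the lymphatic one. It was also left out when 1 of certain other lists outweighed the lymphatic and pan-endothelial lists together. These were the T or NK, B or plasma, macrophage or dendritic, mast cell, fibroblast and pericyte lists, and the neutrophil list was not among them. This choice was made after seeing the data, as were its combinations with thinning and with the deepest cell left out. Thinning drew 5000 UMIs per cell without replacement. Scrublet's automatic threshold marked 197 adult barcodes (1.24%) and 0 newborn ones, and these calls were not used. Doublets were kept in the main values, and an alternative left out the highest scores up to 12.7% of adult and 11.0% of newborn barcodes. Clusters used 1000 variable genes, 15 components, 15 neighbours and Leiden resolution 0.5. Software was numpy 2.4.6, scipy 1.17.1, pandas 2.3.3 and scanpy 1.11.5. No sequence or coordinate was used.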

Additional observations from a re-analysis of the deposited data

How the results depend on the processing

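The number of member cells was 171 at a minimum of 3000 UMIs, 42 at 8000 and 62 with 3 of the 4 lymphatic genes required. A limit of 20% on mitochondrial UMIs left all 103. Against RELN-positive cells, genes lower in the members numbered 92 at 3000 UMIs, 444 at 8000, 88 with 3 lymphatic genes, 60 with scaling to the median gene and 86 with every cell thinned. They numbered 59 without barcodes of other lineages, 83 when those cells were also thinned, 46 when the deepest cell was also left out, and 1242 with the 20-UMI minimum alone. Genes higher in the members numbered 120 with 3 lymphatic genes and 214 with the 20-UMI minimum alone. Against blood endothelial cells, genes higher numbered 999 with 3 lymphatic genes, 937 without other lineages, 931 with those cells thinned, 937 without the deepest cell and 1386 with the 20-UMI minimum alone. Genes lower numbered 252 with thinning and 260 with thinning without other lineages. Against newborn cells, genes higher numbered 183 without the highest Scrublet scores, 474 with thinning and 891 with the 20-UMI minimum alone, and genes lower 712 at 8000 UMIs, 565 without the highest Scrublet scores and 127 with thinning. Median scaling moved the share of higher calls from 29.7% to 61.5% against RELN-positive cells with all 103 members, and for the newborn contrast without other lineages 318 genes were then higher and 396 lower. For the newborn contrast the limit on RELN was dropped under the settings that left fewer than 20 newborn cells. Directions reversed as log2 ratios as follows. Against RELN-positive cells, at 8000 UMIs MGP was −1.22 and MT1A −1.50. With 3 lymphatic genes BASP1 was −0.39, HSTN −0.021 and MGP −0.28. Without other lineages BLA-DQB was −0.59, CKB −0.11 and CTSC −1.33, with thinning as well CKB −0.56 and CTSC −0.44, and without the deepest cell BLA-DQB −0.50, CKB −0.016 and CTSC −1.24. HSTN against blood endothelial cells was −0.46 with 3 lymphatic genes, −0.42 without other lineages, −0.18 with thinning as well and −0.33 without the deepest cell. AQP1 against newborn cells was 0.80 at 8000 UMIs, 6.62 with 3 lymphatic genes, 7.46 without the highest Scrublet scores, 5.55 without barcodes holding 3 UMIs of PTPRC or fibroblast collagen and decorin genes, 6.77 without other lineages, 5.85 with thinning as well, 6.73 without the deepest cell and 0.24 with thinning alone. The cause of these changes was not tested. Of 1364 values for single genes under the alternatives, 986 moved by less than their counting interval, 353 moved further and 25 reversed. The members' depth limits what can be said of genes near 1 UMI a cell, RELN and PROX1 among them. No paired analysis was possible because each stage has 1 library and no test was made.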
